A study of Mus musculus with 9 samples.

Results

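The genes described here are those of cholesterol synthesis and of SREBP, the transcription factor that controls it, in 3T3 fibroblasts, an immortalised line of mouse embryonic cells. They were chosen by symbol, and 27 of the 28 listed genes had a probe set of their own, of 19946 genes with such a probe set. The remaining gene, *Acat2*, was not matched and was not analysed here. RNA was measured on 9 Affymetrix Mouse Gene ST arrays in 3 groups of 3. Trap-80 knock-down cells, which carried an shRNA against the Mediator subunit Trap-80, were sampled after 1 h with 5 ng/ml TNF-α. Wild-type cells, here cells with an irrelevant shRNA, were sampled after the same stimulation and without it. No array of knock-down cells at rest was analysed here. A difference between the lines at rest and a difference in the response therefore cannot be told apart. The study describes its knock-down lines as clones, so an effect of the knock-down and a property of the clone cannot be told apart either. The labels call the 3 arrays of a group biological replicates, and the paper describes 3 independent samples a group. Neither says whether they came from separate cultures. The p-values therefore measure only the spread between these samples, and what that spread covers is not stated.

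Cholesterol is built from acetyl-CoA. The early enzymes make mevalonate and convert it into isoprenyl diphosphates, which also serve protein prenylation, and the later enzymes join these into squalene, close its rings to lanosterol and trim lanosterol to cholesterol. SREBP proteins are made as precursors in the membrane of the endoplasmic reticulum. When sterols are low, the escort protein Scap carries them to the Golgi, where proteases release the active factor, and when sterols are high, Insig proteins hold Scap back. Fibroblasts make their own cholesterol by this pathway and take up more from lipoproteins.

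Promoter sequences are shown for *Cyp51*, *Nsdhl*, *Insig1* and *Idi1*, which had the largest knock-down differences among the genes whose groups did not overlap, and for *Hmgcs1*, the gene whose window held the closest match to a sterol response element. Each is the 250 bases before the annotated start in RefSeq (GRCm38.p6), with capitals marking matches on either strand to the CCAAT box (CCAAT), the GC box (GGGCGG) and an SRE-like motif (TCACNCCAC).
Cyp51, chr5:4104698-4104947, minus strand: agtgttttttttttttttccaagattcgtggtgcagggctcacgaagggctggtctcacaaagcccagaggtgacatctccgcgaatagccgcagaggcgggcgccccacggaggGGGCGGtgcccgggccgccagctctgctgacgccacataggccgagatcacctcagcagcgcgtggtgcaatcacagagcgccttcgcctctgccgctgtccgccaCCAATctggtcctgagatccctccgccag
Nsdhl, chrX:72918271-72918520, plus strand: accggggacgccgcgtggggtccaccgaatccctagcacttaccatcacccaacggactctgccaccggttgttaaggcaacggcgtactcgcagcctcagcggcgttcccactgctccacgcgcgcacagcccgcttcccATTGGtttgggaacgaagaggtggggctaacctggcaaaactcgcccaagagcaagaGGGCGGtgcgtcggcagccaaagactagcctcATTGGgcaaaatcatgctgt
Insig1, chr5:28071162-28071411, plus strand: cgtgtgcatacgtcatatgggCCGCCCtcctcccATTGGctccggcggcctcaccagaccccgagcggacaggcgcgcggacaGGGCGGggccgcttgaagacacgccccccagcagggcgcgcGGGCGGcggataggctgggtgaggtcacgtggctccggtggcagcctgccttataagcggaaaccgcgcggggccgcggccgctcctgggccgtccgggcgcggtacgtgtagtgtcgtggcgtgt
Idi1, chr13:8885356-8885605, plus strand: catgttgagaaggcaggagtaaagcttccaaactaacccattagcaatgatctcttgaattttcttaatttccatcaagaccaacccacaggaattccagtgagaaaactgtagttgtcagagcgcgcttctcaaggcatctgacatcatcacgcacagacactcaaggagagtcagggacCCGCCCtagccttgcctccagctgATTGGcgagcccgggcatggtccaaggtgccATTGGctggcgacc
Hmgcs1, chr13:119690101-119690350, plus strand: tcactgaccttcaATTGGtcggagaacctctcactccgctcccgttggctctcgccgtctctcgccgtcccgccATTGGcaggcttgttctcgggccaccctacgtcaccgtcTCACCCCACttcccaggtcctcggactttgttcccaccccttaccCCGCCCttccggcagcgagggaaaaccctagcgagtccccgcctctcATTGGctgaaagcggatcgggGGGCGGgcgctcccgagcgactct
The window before *Cyp51* held a CCAAT box at positions -29 to -25 from the start and a GC box at -135 to -130, and that of *Nsdhl* held CCAAT boxes at -109 to -105 and -20 to -16. A window was found for 22 of the 28 listed genes. Of these, 20 held a CCAAT box, against 38.81% of the 15619 array genes with a window, and 19 held a GC box, against 49.31%. The SRE-like motif was in 1 of the 22, at -137 to -129 in *Hmgcs1*, against 1.2% of array genes. With a further free base (TCACNNCAC, which takes in the stricter motif), 4 windows held it, those of *Hmgcs1*, *Msmo1*, *Hsd17b7* and *Dhcr7*, against 3.62%. A gene with several starts counted where any of its windows had a match. A match here is a run of letters, not a measured binding site.

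Values are log2 signals that the authors deposited after RMA, which corrects background, normalizes the arrays and joins the probes of a transcript. *Med17*, which encodes Trap-80, had log2 signals of 6.35, 6.22 and 6.17 in knock-down cells with TNF-α, against 7.98, 7.93 and 7.77 in wild-type cells with TNF-α and 8.10, 8.09 and 7.89 in unstimulated wild-type cells. The knock-down arrays lay below every other array, with 32.0% of the stimulated wild-type signal left (log2 difference -1.64, standard error 0.09, limma adjusted p = 4.8e-05; two-sided exact permutation p = 0.1, the minimum for groups of this size). By quantitative PCR, a different measure, the paper reports a deeper reduction of this mRNA, and it detected no Trap-80 protein by western blot. All 9 measured fibroblast markers lay above the median signal of the tested probe sets, 5.02, whereas 0 of 7 adipocyte and 0 of 5 endothelial, 1 of 6 epithelial and 2 of 6 macrophage or leukocyte markers did so. The fibroblast markers *Thy1* and *S100a4* rose by 2.09 and 0.55 in the knock-down (adjusted p = 4.8e-04 and 0.0106), and *Pdgfra* fell by 1.89 (adjusted p = 9.5e-05). The part of this difference between the lines in the results below was not tested. All 27 pathway genes were above 5.02, with mean signals of 6.08 to 11.56 over the arrays.

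The pathway genes varied together between arrays of the same group. Array 3 of the stimulated wild-type cells was the highest of its group in 25 of the 27 genes, against 29.4% of all tested probe sets, by a median of 0.26 log2 above the group mean. Array 3 of the unstimulated wild-type cells was the highest in 24 of 27, against 39.1%, by a median of 0.24. In the knock-down group, array 1 was the lowest in 25 of 27 genes, against 33.3%, by a median of -0.15. What an array number marks is not stated. The median SD within a group was 0.23 over the pathway genes and 0.13 over all tested probe sets, and it ranged from 0.06 for *Ggps1*, geranylgeranyl diphosphate synthase, to 0.41 for *Mvd*, mevalonate diphosphate decarboxylase. *Fasn*, fatty acid synthase, named after its values were seen, ran the other way. It had 9.35, 9.32 and 8.95 in knock-down cells with TNF-α, 9.39, 9.29 and 8.87 in wild-type cells with TNF-α and 9.42, 9.43 and 9.02 in unstimulated wild-type cells, so that array 3 was the lowest in each group.

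**Figure D1:**
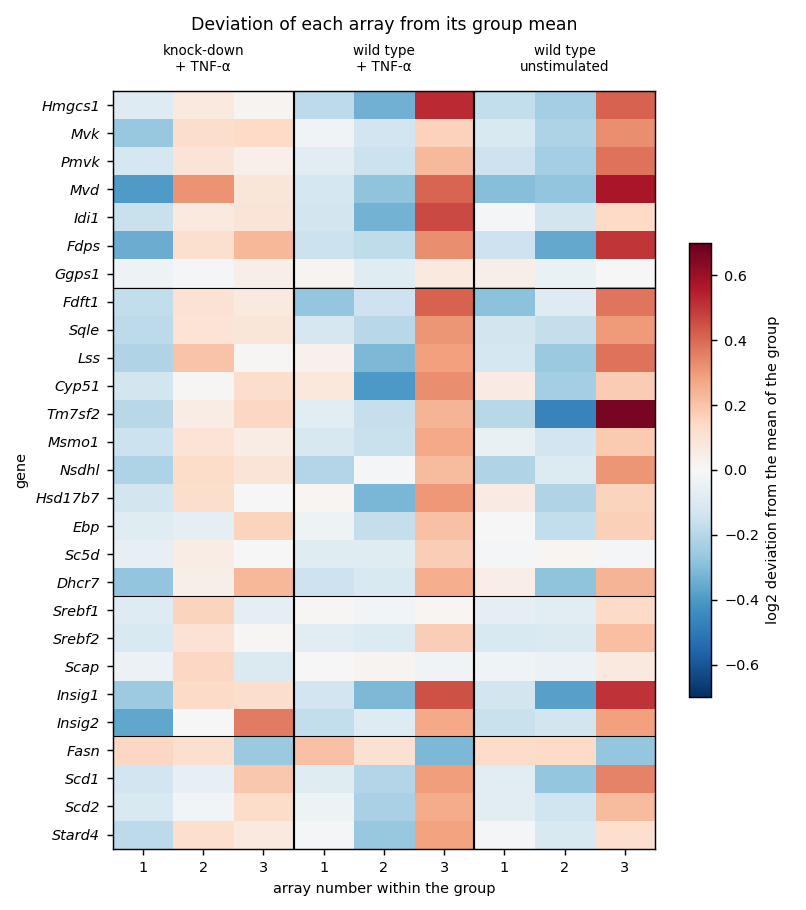
Log2 deviation of each array (columns, by group and array number) from the mean of its group, for the 27 measured pathway genes (rows, parted by role), from blue for below the mean to red for above it. Array 3 of both wild-type groups is red for nearly all genes, the highest of its group in 25 of 27 genes with TNF-α and in 24 of 27 unstimulated, whereas *Fasn* is blue there.

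The first comparison asked how the pathway stood in Trap-80 knock-down cells, against wild-type cells under the same TNF-α stimulation. At an adjusted p under 0.05 (limma, Benjamini-Hochberg adjustment over 23410 probe sets), *Cyp51* rose and no pathway gene fell. This 1 of 27 genes (3.7%) stood beside 3.36% of all tested probe sets that passed as higher, and 2.60% passed as lower. With the array number as a block in the model, 4 genes passed as higher (14.8%, background 4.94%), namely *Cyp51*, *Nsdhl*, *Insig1* and *Insig2*, and 0 as lower (background 4.07%). The pairing by number rests on the array values themselves. Whether the block favours the pathway genes, which varied together between arrays, over other probe sets was not tested. Every knock-down array lay above every stimulated wild-type array in 4 genes, *Cyp51*, *Nsdhl*, *Sc5d* and *Insig1* (14.8%, background 10.9%), and below them in 1, *Idi1* (3.7%, background 10.0%). Of the 27 differences, 20 lay above 0 (74.1%, against 45.4% of all tested probe sets), with a median of 0.16, against -0.02 over all tested probe sets. In bulk RNA, fewer cells expressing a gene and less of its RNA per cell cannot be told apart. Of all probe sets that passed, 56.3% were higher on the deposited values and 68.0% after each array was centred on its median.

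**Figure D2:**
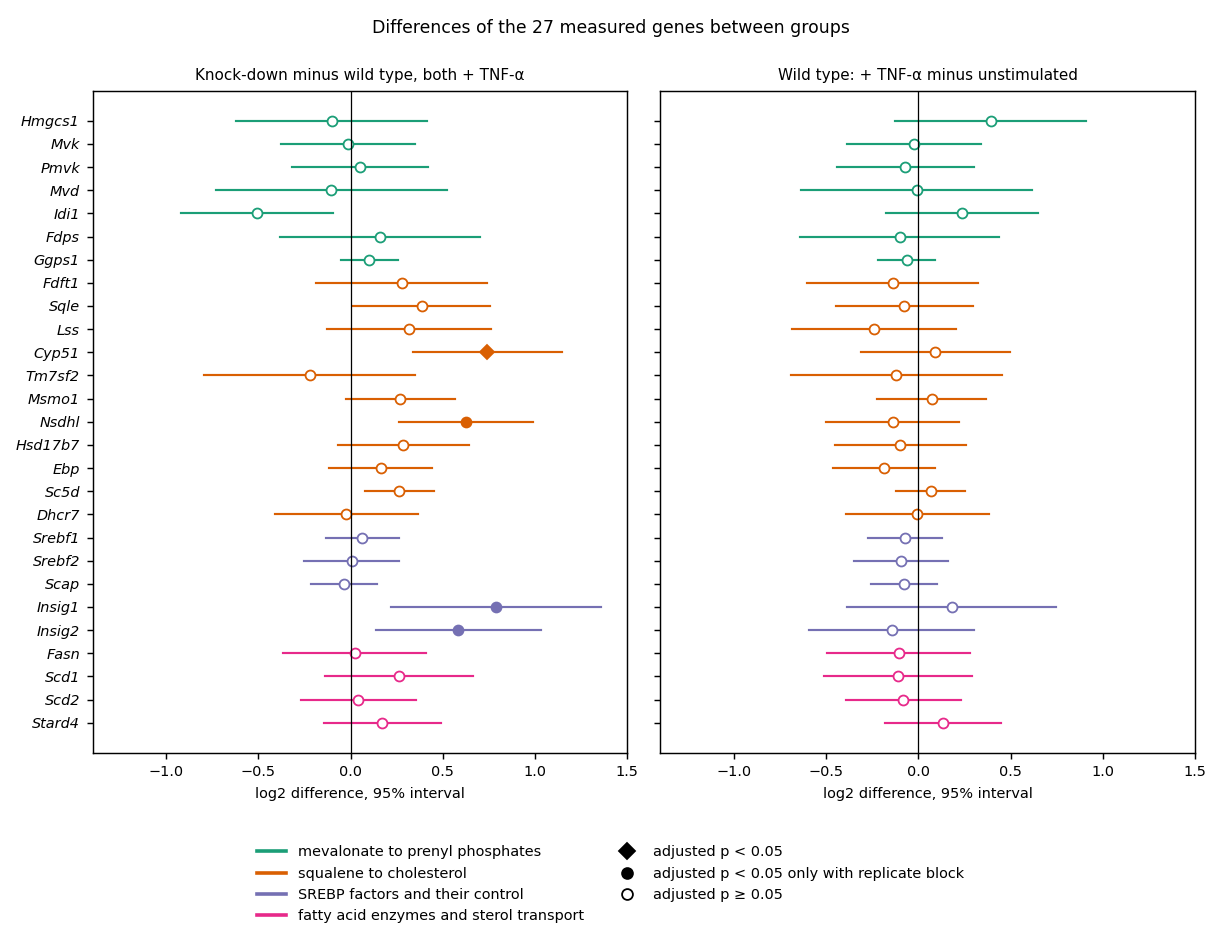
Log2 differences with 95% intervals for the 27 measured genes (rows, coloured by role), for stimulated knock-down minus stimulated wild type (left) and for wild type with TNF-α minus unstimulated (right). The diamond marks *Cyp51*, at 0.74, which passed the test, filled circles mark *Nsdhl*, *Insig1* and *Insig2*, which passed with the array number as a block but not without it, and open circles the genes that did not pass.

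Among the 11 enzymes from squalene to cholesterol, 9 had a difference above 0, with a median of 0.28, and 3 of the 4 genes with all knock-down arrays on top belonged to them. *Cyp51*, the cytochrome P450 that takes a methyl group off lanosterol, had log2 signals of 9.21, 9.35 and 9.47 in knock-down cells with TNF-α, against 8.68, 8.20 and 8.93 in wild-type cells with TNF-α. Each knock-down array lay above each wild-type array, also above the unstimulated ones at 8.57, 8.27 and 8.69. The difference was 0.74 (standard error 0.18, 95% interval 0.34 to 1.15, 1.67-fold, adjusted p = 0.0442, and 0.00942 with the block). This call was lost when the model held only these 6 arrays (adjusted p = 0.091), when all deposited probe sets were tested (0.101) and without any one of the 6 arrays except stimulated wild-type array 3 (0.0863 to 0.154). The difference itself stayed between 0.54 and 0.91 whichever array was left out.

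*Nsdhl*, a sterol dehydrogenase that acts on the same methylated intermediates, had 8.23, 8.57 and 8.53 in knock-down cells with TNF-α and 7.61, 7.80 and 8.04 in wild-type cells with TNF-α. Its knock-down arrays also lay above all stimulated wild-type arrays, while the highest unstimulated wild-type array, at 8.27, overlapped them. The difference was 0.63 (standard error 0.16, 95% interval 0.26 to 0.99, adjusted p = 0.0557, and 0.00499 with the block). It passed without a block too when stimulated wild-type array 3 was left out (0.74, adjusted p = 0.0484), after each array was centred (0.0213) and among probe sets above the median signal (0.0335). It did not pass with only these 6 arrays in the model (adjusted p = 0.0669) or with all deposited probe sets (0.119). Without 1 array the adjusted p reached 0.197. *Sc5d*, a sterol desaturase late in the pathway, had 9.54, 9.65 and 9.60 in knock-down cells and 9.24, 9.25 and 9.50 in wild-type cells, both with TNF-α. The groups were apart, by 0.26 (standard error 0.08, 95% interval 0.08 to 0.45, adjusted p = 0.117), and the difference passed only without stimulated wild-type array 3 (0.35, adjusted p = 0.0314).

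*Sqle*, squalene epoxidase, which adds the oxygen needed for ring closure, had 10.11, 10.39 and 10.38 in knock-down cells and 9.79, 9.71 and 10.22 in wild-type cells, both with TNF-α, against 9.85, 9.82 and 10.28 in unstimulated wild-type cells. Here stimulated wild-type array 3 lay within the knock-down range, and the difference of 0.39 did not pass (standard error 0.16, adjusted p = 0.264). The other 7 enzymes of this arm did not pass either. *Lss*, which closes the rings of lanosterol, differed by 0.32, *Hsd17b7* by 0.29, *Fdft1*, squalene synthase, by 0.28, *Msmo1*, a methylsterol oxidase, by 0.27 and *Ebp*, a sterol isomerase, by 0.16. *Dhcr7*, the reductase of the last step, differed by -0.02, and *Tm7sf2*, a sterol reductase, by -0.22. The second probe set of *Fdft1* differed by 0.14.

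**Figure D3:**
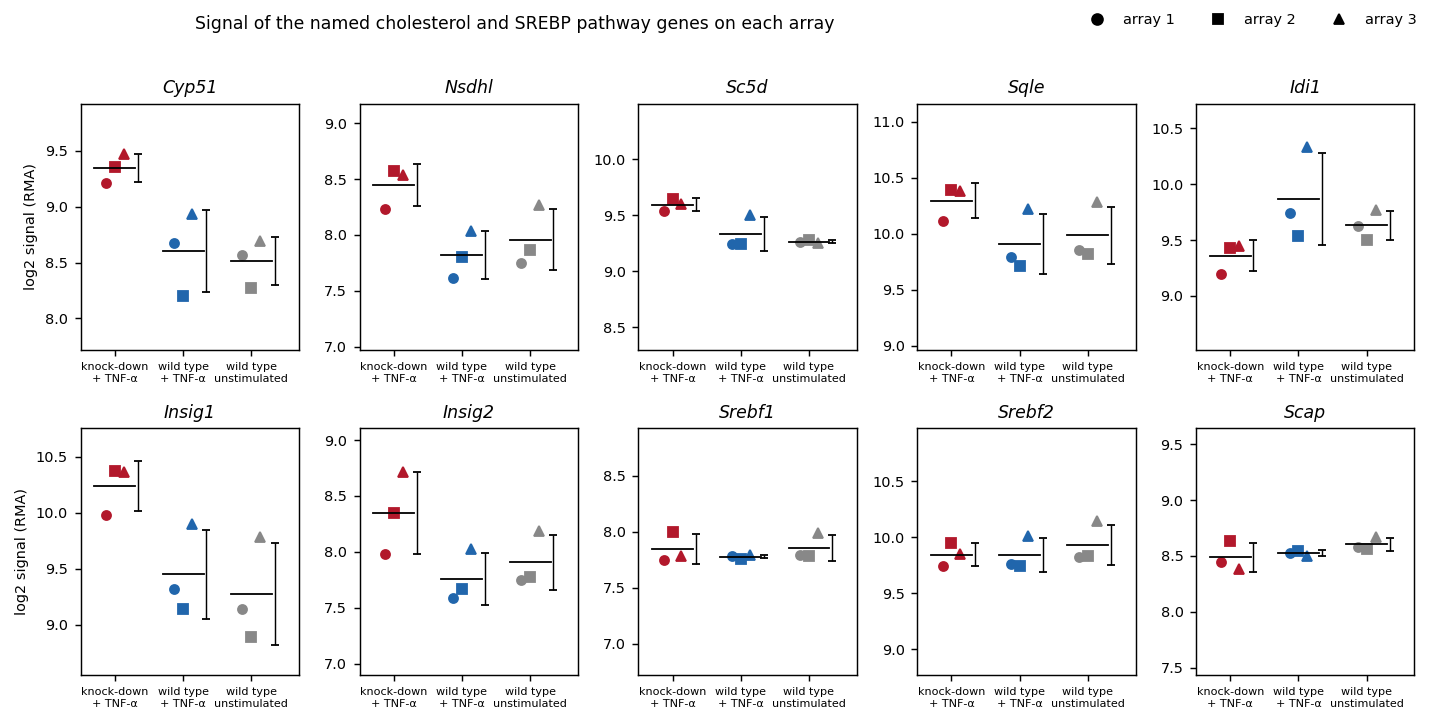
Log2 RMA signal on each of the 9 arrays for 10 of the pathway genes, with the group mean (horizontal line), the SD (bar, n = 3) and the array number as the marker shape; each panel spans the same log2 range. Knock-down arrays lie above all stimulated wild-type arrays for *Cyp51*, *Nsdhl*, *Sc5d* and *Insig1* and below them for *Idi1*.

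The early enzymes, from acetyl-CoA to the prenyl diphosphates, did not share this direction. Their 7 differences had a median of -0.01, with 3 above 0, and 0 passed with or without the block. *Idi1*, the isomerase that makes dimethylallyl diphosphate, had 9.20, 9.43 and 9.45 in knock-down cells with TNF-α, against 9.74, 9.53 and 10.33 in wild-type cells with TNF-α and 9.62, 9.50 and 9.77 in unstimulated wild-type cells. All knock-down arrays lay below all wild-type arrays, although the nearest were close. The difference was -0.51 (standard error 0.18, 95% interval -0.92 to -0.10, adjusted p = 0.173, and 0.0631 with the block), and -0.28 without stimulated wild-type array 3, which at 10.33 stood far above the rest. A second, dimmer probe set of *Idi1* differed by -0.56 (adjusted p = 0.152, and 0.0401 with the block). *Hmgcs1*, the cytosolic HMG-CoA synthase, differed by -0.10 (95% interval -0.62 to 0.42), and the kinases *Mvk* and *Pmvk* by -0.01 and 0.05. *Mvd* differed by -0.10, *Fdps*, farnesyl diphosphate synthase, by 0.16 and *Ggps1* by 0.10.

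Among the genes of SREBP itself, both Insig genes had a higher mean signal in the knock-down, while the differences of the SREBP genes and *Scap* were near 0. *Insig1*, an anchor of Scap that is itself a target of SREBP, had 9.98, 10.37 and 10.37 in knock-down cells with TNF-α, against 9.32, 9.14 and 9.90 in wild-type cells with TNF-α. The groups did not overlap, and the difference of 0.79 (standard error 0.25, 95% interval 0.22 to 1.36, 1.73-fold) passed with the block (adjusted p = 0.0205) but not without it (0.124). Without the arrays numbered 3, a setting added after the values were seen, it was 0.95 (adjusted p = 0.0376). It did not pass without any 1 array (adjusted p = 0.0558 to 0.358) or with only the 6 arrays compared (0.116). Nor did it pass with all deposited probe sets (0.227) or among probe sets above the median signal (0.0751). *Insig2*, the second such anchor, had 7.98, 8.35 and 8.71 in knock-down cells and 7.59, 7.67 and 8.02 in wild-type cells, both with TNF-α. Knock-down array 1 lay below stimulated wild-type array 3, so the groups overlapped, and the difference of 0.58 (standard error 0.20, 95% interval 0.14 to 1.03) passed only with the block (adjusted p = 0.00556, against 0.149).

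*Srebf2*, the SREBP gene best known for cholesterol synthesis, had 9.74, 9.94 and 9.85 in knock-down cells and 9.76, 9.75 and 10.01 in wild-type cells, both with TNF-α, against 9.83, 9.83 and 10.14 in unstimulated wild-type cells. The groups lay over each other, with a difference between knock-down and stimulated wild type of 0.01 (standard error 0.11, 95% interval -0.25 to 0.26, adjusted p = 0.993). *Srebf1*, whose main product serves fatty acid synthesis, had 7.75, 8.0 and 7.78 in knock-down cells and 7.79, 7.76 and 7.79 in wild-type cells with TNF-α, a difference of 0.06 (95% interval -0.14 to 0.26), and 7.79, 7.78 and 7.99 in unstimulated wild-type cells. *Scap* had 8.45, 8.63 and 8.39 in knock-down cells and 8.53, 8.55 and 8.50 in wild-type cells with TNF-α, a difference of -0.04 (95% interval -0.22 to 0.14). The signs of these 3 small differences turned under other settings. They are RNA levels, and the arrays do not measure how much SREBP was cleaved.

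The fatty acid enzymes and the sterol carrier did not pass in this comparison. *Scd1*, a stearoyl-CoA desaturase, differed by 0.26, *Stard4*, a sterol transfer protein, by 0.17, the desaturase *Scd2* by 0.04 and *Fasn* by 0.02.

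Taken between arrays of the same number, the higher values rested mainly on the arrays numbered 2. There, 25 of the 27 differences between knock-down and wild type with TNF-α lay above 0 (median 0.40, against 44% above 0 of all tested probe sets). Between the arrays numbered 1 it was 14 of 27 (median 0.00, 41.9%), and between those numbered 3 it was 13 of 27 (median -0.01, 46.4%). The arrays numbered 2 stood at opposite ends of their groups. That of stimulated wild-type cells was the lowest in 20 of 27 genes (28.5% of tested probe sets). That of knock-down cells was the highest in 15 of 27 (32.8%). For the 11 enzymes from squalene onwards, the medians were 0.23, 0.53 and 0.06 for the numbers 1, 2 and 3. The difference lay above 0 for every number in 11 of the 27 genes (40.7%, against 19.4% of tested probe sets) and below 0 for every number in 2, *Idi1* and *Tm7sf2* (7.4%, against 20.8%). *Cyp51* gave 0.54, 1.15 and 0.54 for the numbers 1, 2 and 3, *Nsdhl* 0.62, 0.77 and 0.49, *Insig1* 0.66, 1.23 and 0.47, and *Insig2* 0.39, 0.68 and 0.69. These 4 genes are those that passed with the number as a block. That model favours genes whose same-numbered differences agree, so their agreement is no separate support. *Idi1* gave -0.54, -0.11 and -0.88.

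**Figure D4:**
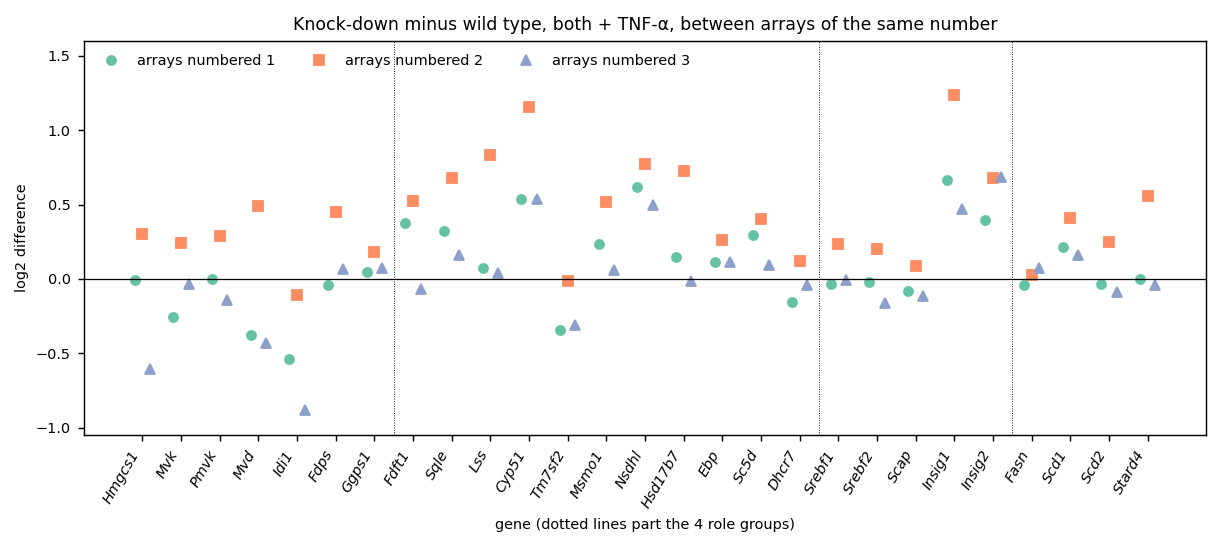
Log2 difference between knock-down and wild-type cells with TNF-α for each of the 27 genes (horizontal axis, parted by role), taken between the arrays numbered 1 (circles), 2 (squares) and 3 (triangles). The squares lie above 0 for 25 of 27 genes, the circles for 14 and the triangles for 13. All 3 marks lie above 0 for *Cyp51*, *Nsdhl*, *Insig1* and *Insig2*, the genes picked out by the model with the number as a block.

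The second comparison asked whether 1 h of TNF-α moved the pathway in wild-type cells. It shares the stimulated wild-type arrays with the first comparison, so a low value on them raises the first difference and lowers this one. No pathway gene passed the test in either direction (limma), while 0.111% of all tested probe sets passed as higher and 0.00427% as lower. The count was 0 also with the block (background 0.218% higher and 0.0171% lower) and at an unadjusted p under 0.05 (background 3.52% higher and 3.58% lower). The smallest unadjusted p was 0.122 (adjusted p = 0.737), for *Hmgcs1*, with 9.43, 9.27 and 10.13 in stimulated and 9.05, 8.98 and 9.63 in unstimulated wild-type cells. These groups overlapped, and the difference of 0.39 had a 95% interval of -0.13 to 0.91. Between arrays of the same number it was 0.38, 0.29 and 0.50, and with the block it did not pass (adjusted p = 0.506). At the other end, *Lss* differed by -0.24 (95% interval -0.69 to 0.20). Of the 27 differences, 7 lay above 0 and 20 below (74.1%, against 54.9% of all tested probe sets), with a median of -0.08, against -0.02 over all tested probe sets. Between arrays of the same number, 12 of the 27 genes were below 0 for every number (44.4%, against 19.0% of tested probe sets) and 4 above 0 for every number (14.8%, against 9.74%), namely *Hmgcs1*, *Idi1*, *Msmo1* and *Insig1*. *Scap* was the single gene whose groups did not overlap, with all stimulated arrays below the unstimulated ones (8.58, 8.56 and 8.67) by a mean of -0.08 (3.7%, background 6.18%). In 0 genes did the stimulated arrays lie above all unstimulated ones (background 4.01%).

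For the genes that stood out in the knock-down, the 95% interval of the TNF-α difference held 0. It was 0.09 for *Cyp51* (95% interval -0.31 to 0.50), 0.18 for *Insig1* (-0.39 to 0.75) and 0.07 for *Sc5d* (-0.12 to 0.25). It was -0.14 for *Nsdhl* (-0.50 to 0.22), -0.14 for *Insig2* (-0.59 to 0.30), -0.08 for *Sqle* (-0.45 to 0.30) and 0.24 for *Idi1* (-0.17 to 0.65). The SREBP genes differed by -0.07 (*Srebf1*) and -0.09 (*Srebf2*). Between arrays of the same number, the TNF-α difference was 0.18, 0.24 and 0.12 for *Insig1* and -0.16, -0.11 and -0.17 for *Insig2*. With the block, neither passed (adjusted p = 0.727 and 0.616).

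The third comparison set stimulated knock-down cells against unstimulated wild-type cells, and it shares its arrays with the other comparisons. *Cyp51* (0.83, standard error 0.18, adjusted p = 0.0212), *Insig1* (0.97, standard error 0.25, adjusted p = 0.0477) and *Sc5d* (0.33, standard error 0.08, adjusted p = 0.0415) passed as higher, and 0 passed as lower. These 3 of 27 genes (11.1%) stood beside 3.64% of tested probe sets higher and 4.62% lower. The stimulated wild-type arrays do not enter these differences. Here 15 of the 27 lay above 0 (55.6%, against 47.5% of all tested probe sets). The median was 0.06, against -0.01 over all tested probe sets. *Insig1* had 9.14, 8.89 and 9.78 in unstimulated wild-type cells, all below the knock-down arrays, and *Sc5d* had 9.26, 9.28 and 9.26 there. The call of *Sc5d* was lost without any one of the 6 arrays (adjusted p = 0.0777 to 0.125). Those of *Cyp51* and *Insig1* were lost without any one except unstimulated wild-type array 3 (up to 0.081 and 0.155). *Nsdhl* differed by 0.49 (adjusted p = 0.111) and *Insig2* by 0.44 (adjusted p = 0.251). Their unstimulated wild-type arrays were at 7.75, 7.86 and 8.27 for *Nsdhl* and at 7.75, 7.78 and 8.19 for *Insig2*, and overlapped the knock-down arrays.

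Of 37 further genes around the pathway, 32 were measured, and 0 passed for TNF-α. In the knock-down against wild type with TNF-α, 1 passed as higher (3.12%, background 3.36%) and 2 as lower (6.25%, background 2.60%). *Me1*, malic enzyme, which supplies NADPH for lipid synthesis, had 10.15, 10.13 and 10.35 in knock-down and 9.80, 9.84 and 9.92 in wild-type cells with TNF-α (0.36, standard error 0.08, adjusted p = 0.0312), beside 9.94, 9.96 and 9.87 in unstimulated wild-type cells. These values are from the brighter of 2 probe sets of *Me1*, and the other was not examined. The lower genes encode the enzyme that attaches a geranylgeranyl group to proteins. *Pggt1b*, its catalytic subunit, had 8.10, 7.96 and 8.04 in knock-down and 8.38, 8.34 and 8.46 in wild-type cells with TNF-α (-0.36, standard error 0.07, adjusted p = 0.016), beside 8.41, 8.36 and 8.32 in unstimulated wild-type cells. *Fnta*, the subunit it shares with farnesyltransferase, had 7.45, 7.66 and 7.63 in knock-down and 7.94, 7.88 and 7.88 in wild-type cells with TNF-α (-0.32, standard error 0.07, adjusted p = 0.0343), beside 8.12, 8.13 and 8.17 in unstimulated wild-type cells. In all 3 genes the knock-down arrays were apart from the stimulated wild-type arrays, but the calls were near the threshold. Without 1 array, the adjusted p reached 0.122 for *Me1* (kept only without stimulated wild-type array 3) and 0.131 for *Fnta* (never kept). It reached 0.0612 for *Pggt1b* (kept without knock-down array 1 or stimulated wild-type array 2). After centring, *Pggt1b* (0.0694) and *Fnta* (0.0951) did not pass. With the block, *Acss2*, which makes acetyl-CoA from acetate, also passed as higher (0.41, adjusted p = 0.0211) and *Gpam*, a glycerol phosphate acyltransferase, as lower (-0.45, adjusted p = 0.0121). By list, 1 of 13 lipogenic SREBP targets and proteases and 2 of 8 genes of prenyl transfer and dolichol synthesis passed without the block. None of the 5 measured genes of LXR, the nuclear receptor for oxysterols, and its targets passed, and none of the 6 of sterol-regulated degradation in the endoplasmic reticulum. Of these 11, 2 were higher at an unadjusted p under 0.05 (background 9.34%), *Ufd1* (0.22) and *Vcp* (0.15), partners in drawing proteins out of that membrane, both named after their values were seen.

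In stimulated knock-down against unstimulated wild-type cells, 0 of the 32 further genes passed as higher and 3 as lower (9.38%, background 4.62%). *Gpam* had 6.67, 6.92 and 7.07 in knock-down cells with TNF-α, against 7.46, 7.41 and 7.72 in unstimulated wild-type cells and 7.25, 7.30 and 7.46 in wild-type cells with TNF-α. All knock-down arrays lay below all wild-type arrays, and the difference from the unstimulated cells was -0.64 (standard error 0.12, adjusted p = 0.0129, up to 0.0427 without 1 array). *Fnta* differed by -0.56 (standard error 0.07, adjusted p = 0.00201, up to 0.0103 without 1 array). *Pggt1b* differed by -0.33 (standard error 0.07, adjusted p = 0.0186), and its call was lost without knock-down array 2 or 3 or unstimulated wild-type array 1 or 2 (0.0544 to 0.0678). *Me1* did not pass here (0.29, adjusted p = 0.0627).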

How the data were processed

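Total RNA of 9 samples was hybridised to Affymetrix Mouse Gene ST arrays, 3 a group. The authors deposited log2 values from RMA (no version given), and nothing was rescaled. Precision was limited by the 3 arrays a group, with a median standard error of 0.10 for a difference. Of 35557 deposited probe sets, 21797 listed 1 gene symbol in the platform annotation, 1613 several and 12147 none. A gene was taken from probe sets with its symbol alone, by the highest mean over the 9 arrays where it had more than 1. The 23410 annotated probe sets were tested with lmFit and eBayes of limma 3.58.1 in R 4.3.3, all groups in 1 model, with Benjamini-Hochberg adjustment and a threshold of 0.05. The model without the block was first run on simulated data. Their noise was independent between arrays, so deviations shared by same-numbered arrays were not covered. An exact permutation test was added for *Med17*.

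Deviations from the group means correlated between same-numbered arrays at 0.298, 0.110 and 0.403 for the TNF-α comparison and at 0.147, 0.274 and 0.465 for the knock-down, so that values with the number as a block are given for both. Between a number 1 and a number 2 array, the correlations were 0.249 and 0.099 for TNF-α and 0.160 and 0.052 for the knock-down. Between a number 3 array and another number they were -0.402 to -0.153 and -0.392 to -0.176. The values thus set apart the arrays numbered 3, and the pairing within the numbers 1 and 2 is less clear. Between stimulated knock-down and unstimulated wild-type arrays, the same-numbered correlations were 0.151, 0.002 and 0.221. For number 1 this is close to the 0.147 of the knock-down comparison, and for the numbers 2 and 3 it is lower. These values give less ground for pairing those arrays. The block was fitted with all groups in 1 model, however, so it paired them as well. The pairing rests on these values, since no source says what a number marks.

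The pathway genes, lists and alternatives were chosen with earlier results of these data known. Every array value was given for pathway genes with an adjusted p under 0.05 in any comparison or an unadjusted p under 0.05 in the first 2, and for *Srebf1*, *Srebf2*, *Scap*, *Insig1* and *Insig2*, and of the further lists for genes that passed in the first 2. Alternatives were other sets of arrays and probe sets, centring, quantile normalization, an intensity trend, the block and the mean of a gene's probe sets. Motifs were searched in promoter sequences of RefSeq (GRCm38.p6), and motif shares are per gene.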

Additional observations from a re-analysis of the deposited data

How the results depend on the processing

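With 3 arrays a group, calls near the threshold moved with the setting, while the direction of *Cyp51*, *Nsdhl*, *Insig1*, *Insig2*, *Sc5d*, *Sqle*, *Idi1*, *Me1*, *Fnta* and *Pggt1b* in the knock-down against wild type with TNF-α was the same under every alternative run. Of the differences computed under an alternative, 527 kept their direction and side of the threshold, 60 were no longer past it, 18 came to pass it and 25 turned in sign. Of the counts, 132 stayed within 1.5 times and 48 moved by more.

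In the knock-down against wild type with TNF-α, the pathway genes that passed as higher numbered 1, against 0 with only the 6 arrays compared, 0 with all deposited probe sets, 2 among probe sets above the median signal, 2 after centring, 4 with the replicate block and 0 to 3 without 1 array. Over all probe sets, 786 were higher (424 to 659 without 1 array) and 609 lower (952 with the block, 314 to 447 without 1 array). For stimulated knock-down against unstimulated wild type, 3 pathway genes passed, against 0 with all deposited probe sets and 0 to 3 without 1 array. With the block 5 passed as higher (18.5%, background 5.18%), although the array values gave less ground for pairing these groups by number. Over all probe sets, 523 to 821 were higher and 624 to 1123 lower without 1 array. For TNF-α, 26 probe sets passed as higher, against 9 with 6 arrays, 10 with all deposited probe sets, 44 after quantile normalization, 51 with the block and 8 to 18 without 1 array. The 1 lower became 0 with 6 arrays, 3 with all deposited probe sets, 2 among brighter ones, 3 after centring, 3 after quantile normalization, 4 with the block and 0 to 2 without 1 array. No pathway gene passed for TNF-α under any of these.

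The differences that turned in sign were all small. In the knock-down against wild type with TNF-α they were *Scap* after centring (0.018), without the arrays numbered 3, a setting chosen after the data were seen (0.0026), and without 1 array (-0.11 to 0.015), *Srebf2* after quantile normalization (-0.011) and without 1 array (-0.045 to 0.092), and *Srebf1* without 1 array (-0.013 to 0.11). For stimulated knock-down against unstimulated wild type, *Srebf1* turned after quantile normalization (0.008), without the arrays numbered 3 (0.089) and without 1 array (-0.087 to 0.058), and *Srebf2* without the arrays numbered 3 (0.013) and without 1 array (-0.14 to 0.017). For TNF-α, *Sc5d* turned without the arrays numbered 3 (-0.025). Without 1 array, the TNF-α values ran from -0.072 to 0.29 for *Cyp51*, -0.044 to 0.43 for *Insig1*, -0.020 to 0.11 for *Sc5d*, -0.25 to 0.014 for *Nsdhl*, -0.23 to 0.072 for *Sqle* and -0.18 to 0.012 for *Srebf2*. The cause of these changes was not tested. The *Med17* difference ran from -1.70 to -1.60 without 1 array.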
